A study of Homo sapiens with 2 samples.

Results

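The genes described here encode the subunits of nuclear RNA polymerases I, II and III. They were chosen by symbol, as every gene named POLR1, POLR2 or POLR3 followed by a letter from A to M and with no hyphen in the symbol. The rule found 32 gene identifiers in each library, which carry 31 symbols because POLR2J4 has 2 identifiers, out of 18786 symbols with a value in both libraries. POLR1 held 5 of the symbols, POLR2 held 16 and POLR3 held 10. The RNA was sequenced from A549, an established cell line grown from a human lung adenocarcinoma. One culture had been stably transduced with a retrovirus carrying ATOH8, a basic helix-loop-helix transcription factor gene, and the other with the retroviral vector. Each group had 1 library, so every difference compares these 2 libraries and carries no error from replicates and no p-value of its own. The q-values quoted from the authors' deposited table compare the same 2 libraries and likewise carry no replicate error. The labels do not say whether either culture was a clone or a pool.

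RNA polymerase I makes the precursor of the large ribosomal RNAs in the nucleolus, RNA polymerase II makes messenger RNA, and RNA polymerase III makes transfer RNAs and other short RNAs. Each enzyme has a largest and a second largest subunit that form the active centre, a pair of alpha-like subunits on which the core is assembled, a stalk of paired subunits, and a small subunit that takes part in cleaving stalled RNA. POLR2E, POLR2F, POLR2H, POLR2K and POLR2L are parts of all the nuclear enzymes, and POLR1C and POLR1D are parts of both polymerase I and polymerase III. Polymerase III also holds subunits that act like general transcription factors of polymerase II, among them a trimer of POLR3C, POLR3F and either POLR3G or its paralogue POLR3GL. In human cells POLR3G is known from stem cells and transformed cells, and POLR3GL from most tissues.

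The largest difference among the subunit genes lay in that pair of paralogues, so a stretch of each is shown. The sequences are 90 bases of the coding sequence in GENCODE 29 (GRCh38), 5′ to 3′ on the plus strand, and cover bases 6 to 95 of the POLR3G coding sequence and bases 15 to 104 of the POLR3GL coding sequence, which the alignment places opposite each other without a gap. Capitals mark the positions at which they differ.
POLR3G: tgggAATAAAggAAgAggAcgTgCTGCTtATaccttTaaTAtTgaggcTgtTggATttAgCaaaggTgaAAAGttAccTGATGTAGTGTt
POLR3GL: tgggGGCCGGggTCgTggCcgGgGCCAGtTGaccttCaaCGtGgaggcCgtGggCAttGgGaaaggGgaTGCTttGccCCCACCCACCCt
They match at 45 of the 90 positions shown and at 62.2% of the 632 aligned coding bases. The longest run of bases that both coding sequences hold is 14 bases, so a longer read inside the coding sequence matches 1 of the genes and not the other. Of the 50-base windows of the longest POLR3G transcript, 2.07% also occur in the pseudogene POLR3GP2 and 0.958% in POLR3GP1.

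The ATOH8 gene was listed at 182 FPKM in the ATOH8 library, against 0.786 FPKM in the vector library. FPKM is a count of fragments scaled to transcript length and to library size, and so a level per length. The ATOH8 file listed 20870 genes and the vector file 20966, and neither gave read depth. Of 5 epithelial markers, 4 were at 1 FPKM or more in each library, led by KRT8 and KRT18. Their summed level was 4370 FPKM in the ATOH8 library, against 4885 FPKM in the vector library, nearly all of it from those keratin genes. CDH1, the epithelial cadherin, was at 54.1 FPKM in the ATOH8 library, against 15.4 FPKM in the vector library, and EPCAM at 2.23 FPKM in the ATOH8 library, against 1.70 FPKM in the vector library. KRT19 was near 0 in both, at 0.0700 FPKM in the ATOH8 library, against 0.219 FPKM in the vector library. PTPRC and PECAM1, which mark leukocytes and endothelium, were at most at 0.0510 FPKM, and COL1A1, a fibroblast collagen, was at 12.2 FPKM in the ATOH8 library, against 2.16 FPKM in the vector library. Mitochondrially encoded genes other than MT-CO1 held 24.2% of the ATOH8 library's summed FPKM, against 14.4% of the vector library's. FPKM are shares of a library, so less of 1 transcript in each cell cannot be told apart from more of the others, nor fewer cells of a type from less RNA per cell.

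Folds are log2(FPKM + 1) in the ATOH8 library minus that in the vector library. Among genes averaging 5 FPKM or more the median fold was -0.36, and unless stated otherwise folds are given relative to that median gene. A gene is called low when its ATOH8 level lay 2-fold or more below the median gene and high when it lay 2-fold or more above, which is a rule of size and not a test. Among the 12342 genes averaging 1 FPKM or more, 9.46% were low and 12.8% were high.

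All 31 polymerase subunit symbols averaged 1 FPKM or more. Of these, 2 were low, POLR3G and POLR3F, which is 6.45% of the members and near the background of 9.46%, and 0 were high, against the background of 12.8%. The median fold of the members was -0.29, against 0.06 over all genes. Below the median gene stood 23 of the 31 (74.2%), against 47.0% of all genes. The folds ranged from -2.34 for POLR3G to 0.68 for POLR1D. With the FPKM as deposited, without centring, 28 of the 31 had the lower level in ATOH8 cells, and POLR1D, POLR2J2 and POLR3GL, the other 3, had the higher. On that scale 11 of the 31 (35.5%) were low, against a background of 19.0%, and 0 were high, against a background of 6.24%.

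**Figure D1:**
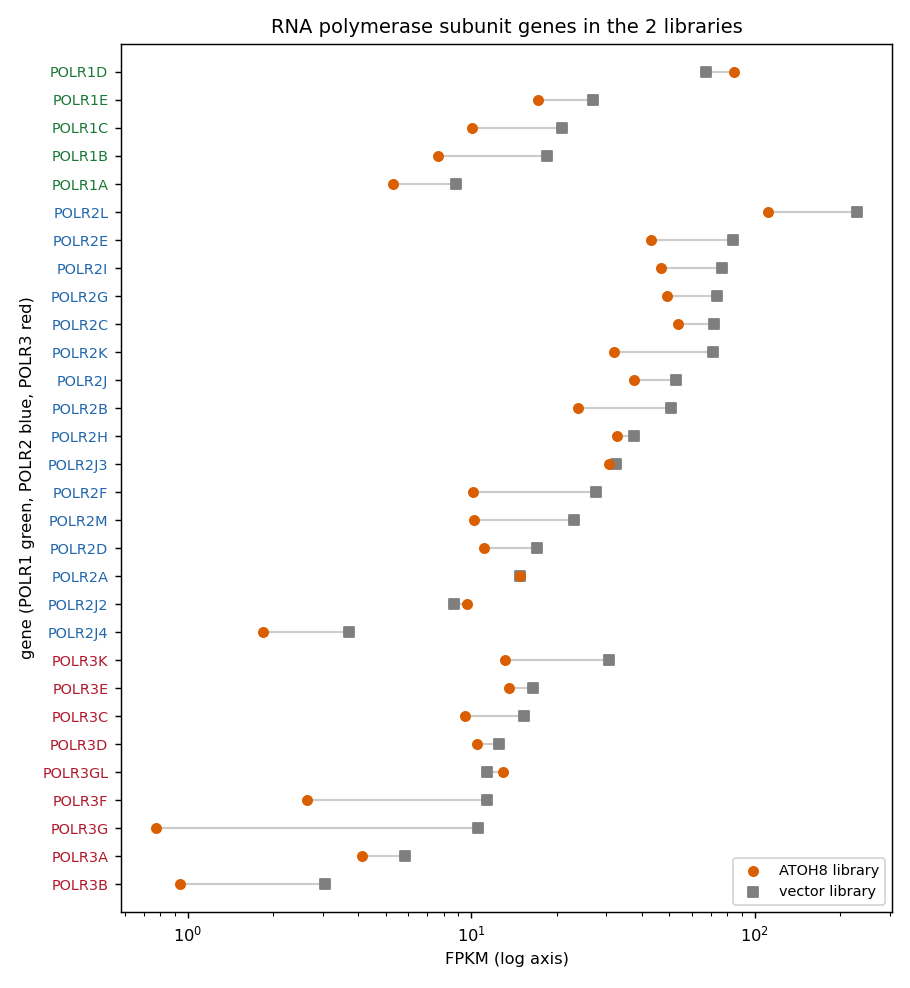
Level of each polymerase subunit gene in FPKM (log axis) in the ATOH8 library (circles) and the vector library (squares), 1 library each, with genes grouped as POLR1, POLR2 and POLR3 and ordered by the vector level. The circle lies left of the square for 27 of the 30 genes shown, and the longest line belongs to POLR3G, at 0.773 FPKM in the ATOH8 library and 10.5 FPKM in the vector library.

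The median folds of the POLR1, POLR2 and POLR3 sets were -0.29, -0.28 and -0.49. Their order depended on the processing, since the medians were -0.25, -0.22 and -0.18 with a pseudocount of 5 and -0.47, -0.27 and -0.37 after a correction for GC content. The POLR3 set held both members past 2-fold (2 of 10), while the POLR1 and POLR2 sets held 0 of 5 and 0 of 16. Over all genes 9.46% were low, and in sets this small these counts are not read as a difference between the enzymes. Summed over its members, POLR1 stood at 125 FPKM in the ATOH8 library, against 143 FPKM in the vector library. POLR2 summed to 518 FPKM in the ATOH8 library, against 875 FPKM in the vector library, and POLR3 to 72.3 FPKM in the ATOH8 library, against 129 FPKM in the vector library. With 1 library per group, whether the sets differ from each other was not tested.

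**Figure D2:**
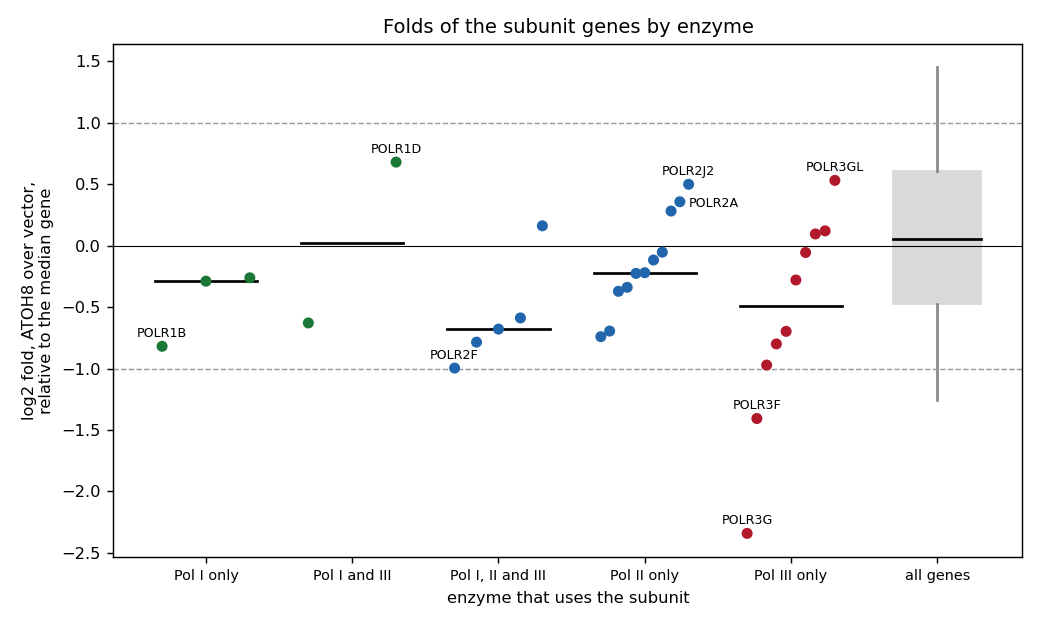
Log2 fold (ATOH8 over vector, relative to the median gene) of each subunit gene, by the enzyme that uses the subunit, beside all genes averaging 1 FPKM or more. Points are genes (POLR1 green, POLR2 blue, POLR3 red), black lines are medians, dashed lines mark 2-fold, and for all genes the box spans percentiles 25 to 75 and the whiskers percentiles 5 to 95. POLR3G at -2.34 and POLR3F at -1.41 lie below the lower dashed line and below the whisker, which ends at -1.26.

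Polymerase III showed the widest spread among its own subunits. POLR3G (chromosome 5, 90471748 to 90514553, plus strand, GENCODE 29 on GRCh38) was at 0.773 FPKM in the ATOH8 library, against 10.5 FPKM in the vector library. That is 13.6-fold lower as a ratio of FPKM, and its log2 fold of -2.34 relative to the median gene had 16 genes below it among the 12342. In the authors' deposited table POLR3G was marked down with a q-value of 2.38e-12. POLR3GL (chromosome 1, 145964702 to 145978848, plus strand) was at 13.0 FPKM in the ATOH8 library, against 11.4 FPKM in the vector library, a fold of 0.53. The paralogues were thus at like levels in the vector library and apart in the ATOH8 library. POLR3G made up 5.62% of their summed level in the ATOH8 library, against 48.0% in the vector library, and the sum was 13.7 FPKM in the ATOH8 library, against 21.9 FPKM in the vector library.

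The other partners in the initiation trimer did not share 1 fold. POLR3F (chromosome 20, 18467127 to 18484643, plus strand), a winged-helix subunit, was at 2.64 FPKM in the ATOH8 library, against 11.4 FPKM in the vector library. Its fold was -1.41 and 3.34% of all genes lay lower. The authors' deposited table marked it down with a q-value of 0.00472. POLR3C, which joins POLR3F in the trimer, was at 9.49 FPKM in the ATOH8 library, against 15.3 FPKM in the vector library, with a fold of -0.28.

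POLR3D and POLR3E, the paired subunits that resemble the general factor TFIIF, lay close to the median gene. POLR3D was at 10.5 FPKM in the ATOH8 library, against 12.6 FPKM in the vector library. POLR3E was at 13.6 FPKM in the ATOH8 library, against 16.6 FPKM in the vector library. Their folds of 0.12 and 0.10 were positive relative to the median gene and negative with the FPKM as deposited (-0.24 and -0.26), so no direction is given for them. In the core, POLR3A, the largest subunit, was at 4.12 FPKM in the ATOH8 library, against 5.82 FPKM in the vector library (-0.06). POLR3B, the second largest subunit and the lowest member in the vector library, was at 0.942 FPKM in the ATOH8 library, against 3.04 FPKM in the vector library (-0.70). At such a level the pseudocount shrinks the fold.

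The gene of RNA cleavage, POLR3K, was further down than the core's largest subunit. POLR3K was at 13.2 FPKM in the ATOH8 library, against 30.7 FPKM in the vector library (-0.80). CRCP, of the stalk, is filed under a symbol outside the rule and stood at 8.90 FPKM in the ATOH8 library, against 9.20 FPKM in the vector library, a fold of 0.32 that was negative with the FPKM as deposited (-0.04).

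**Figure D3:**
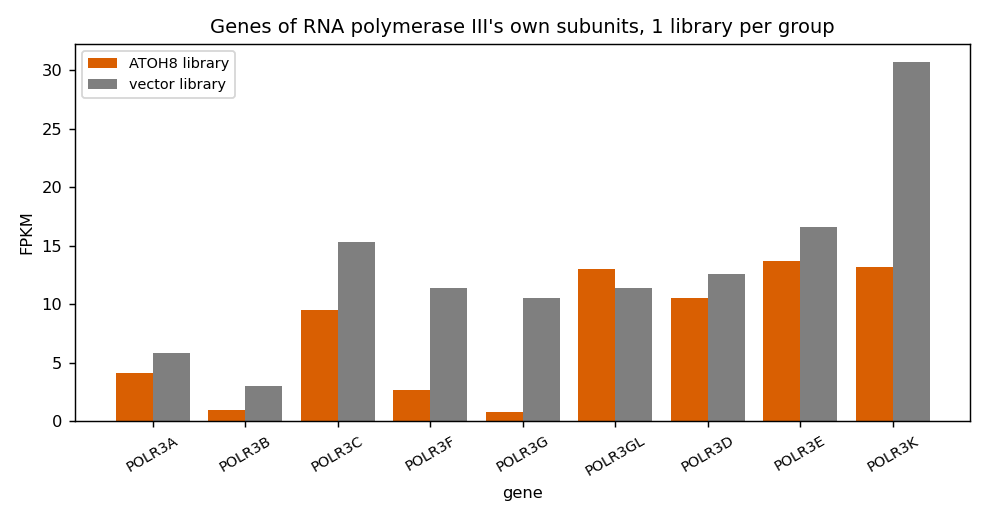
Level in FPKM of 9 genes for polymerase III's own subunits in the ATOH8 library (orange, left bar) and the vector library (grey, right bar), 1 library each and so without error bars. POLR3G and POLR3F are the shortest of the trimer's bars in the ATOH8 library, at 0.773 and 2.64 FPKM, while POLR3GL has its taller bar there, at 13.0 FPKM against 11.4 FPKM in the vector library.

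Among the neighbours, reads could have been split between genes for some members. For 18 of the 31 the locus string of the files spanned another listed gene. MBLAC2, which overlaps POLR3G on the opposite strand, was at 0.889 FPKM in the ATOH8 library, against 2.14 FPKM in the vector library. DZANK1, which overlaps POLR3F on the opposite strand, was at 0.950 FPKM in the ATOH8 library, against 1.25 FPKM in the vector library. SNRNP25, which overlaps POLR3K on the opposite strand, was at 11.9 FPKM in the ATOH8 library, against 29.4 FPKM in the vector library (-0.88). NOA1 and IGFBP7, which overlap POLR2B on the opposite strand, had folds of 0.70 and 0.87. The sources used here do not say whether the authors' counting used strand, and the part of such overlaps in the folds was not tested.

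In polymerase I, POLR1B, the second largest subunit, was furthest down. It was at 7.65 FPKM in the ATOH8 library, against 18.6 FPKM in the vector library, a fold of -0.82. POLR1A, the largest subunit, was at 5.28 FPKM in the ATOH8 library, against 8.84 FPKM in the vector library (-0.29). POLR1E, which with CD3EAP resembles TFIIF, was at 17.2 FPKM in the ATOH8 library, against 26.9 FPKM in the vector library (-0.26). The pair of alpha-like subunits shared with polymerase III had folds of opposite sign. POLR1C was at 10.0 FPKM in the ATOH8 library, against 20.9 FPKM in the vector library (-0.63), and POLR1D at 84.6 FPKM in the ATOH8 library, against 67.5 FPKM in the vector library (0.68). POLR1D was the highest fold of all members, short of 2-fold, and positive under each of the 9 alternatives run. The remaining subunits of polymerase I carry older symbols in the files. TWISTNB, of the stalk, was at 1.95 FPKM in the ATOH8 library, against 8.46 FPKM in the vector library (-1.32). CD3EAP was at 4.83 FPKM in the ATOH8 library, against 11.5 FPKM in the vector library (-0.74), and ZNRD1, of RNA cleavage, at 12.8 FPKM in the ATOH8 library, against 12.1 FPKM in the vector library (0.44). With these the polymerase I set had 1 low gene of 8 and a median of -0.46, while the polymerase III set with CRCP had 2 low genes of 11 and a median of -0.28. Over all genes 9.46% were low and the median fold was 0.06. The low polymerase I gene, TWISTNB, stood at -0.57 after the GC correction.

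The 5 subunits common to all the nuclear polymerases held some of the most abundant members, and 4 of them stood below the median gene. POLR2L was the most abundant member in both libraries, at 111.7 FPKM in the ATOH8 library, against 230.3 FPKM in the vector library (-0.68). POLR2E was at 43.0 FPKM in the ATOH8 library, against 83.8 FPKM in the vector library (-0.59). POLR2K was at 31.8 FPKM in the ATOH8 library, against 71.4 FPKM in the vector library (-0.79). POLR2F (chromosome 22, 37952607 to 38041915, plus strand) was at 10.2 FPKM in the ATOH8 library, against 27.6 FPKM in the vector library. Its fold of -0.996 was, of the members inside the 2-fold line, the closest to it, and the authors' deposited table marked it down with a q-value of 0.00749. POLR2H was the exception at 32.7 FPKM in the ATOH8 library, against 37.6 FPKM in the vector library, with a fold of 0.16. That fold was negative with the FPKM as deposited (-0.20) and after the GC correction (-0.29), where POLR2K stood at 0.05. The sum over the 5 genes was 229 FPKM in the ATOH8 library, against 451 FPKM in the vector library, and their median fold was -0.68. The 11 symbols assigned to polymerase II alone include POLR2M and the pseudogene POLR2J4. Their sum was 289 FPKM in the ATOH8 library, against 425 FPKM in the vector library, and their median fold was -0.22.

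POLR2A, whose product carries the repeated tail that is phosphorylated during transcription, had nearly the same level in both libraries. It was at 14.82 FPKM in the ATOH8 library, against 14.83 FPKM in the vector library, which placed it at 0.36 relative to the median gene and at 0.02 after the GC correction. POLR2B, the second largest subunit, was at 23.8 FPKM in the ATOH8 library, against 50.5 FPKM in the vector library (-0.69), and the authors' deposited table marked it down with a q-value of 0.0157. The same order held in the other enzymes. The fold of the largest subunit minus that of the second largest was 0.53 for polymerase I, 1.05 for polymerase II and 0.64 for polymerase III. The ratio of POLR2A to POLR2B was 0.623 in the ATOH8 library, against 0.294 in the vector library. The POLR1B, POLR2B and POLR3B transcripts were also poorer in GC (44.8%, 41.9% and 44.0%) than those of POLR1A, POLR2A and POLR3A (51.7%, 56.1% and 49.4%), and after the correction for GC content described below the differences were 0.15, 0.27 and 0.30. This pattern was noticed after the values had been seen.

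The remaining polymerase II genes had folds from -0.37 to 0.50, apart from POLR2M. The alpha-like subunit gene POLR2C was at 53.8 FPKM in the ATOH8 library, against 71.8 FPKM in the vector library (-0.05). The stalk gene POLR2D was at 11.1 FPKM in the ATOH8 library, against 17.1 FPKM in the vector library (-0.23), and its partner POLR2G at 48.9 FPKM in the ATOH8 library, against 73.5 FPKM in the vector library (-0.22). POLR2I, of RNA cleavage, was at 46.7 FPKM in the ATOH8 library, against 76.4 FPKM in the vector library (-0.34). POLR2M, which encodes a protein that binds the enzyme and is not a core subunit, was at 10.3 FPKM in the ATOH8 library, against 23.1 FPKM in the vector library (-0.74). Its locus in the files also spanned MYZAP and GCOM1.

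POLR2J, the other alpha-like subunit gene, has copies from which short reads cannot be fully told apart. Of the 50-base windows of the longest POLR2J2 transcript, 62.5% also occur in a transcript of the listed POLR2J3 gene, and of those of POLR2J 28.3% do. POLR2J was at 37.6 FPKM in the ATOH8 library, against 52.6 FPKM in the vector library (-0.12). POLR2J3 was at 30.6 FPKM in the ATOH8 library, against 32.3 FPKM in the vector library (0.28). That fold was negative with the FPKM as deposited (-0.08) and after the GC correction (-0.11). POLR2J2 was at 9.69 FPKM in the ATOH8 library, against 8.69 FPKM in the vector library. Its fold was 0.50. POLR2J4 was at 1.84 FPKM in the ATOH8 library, against 3.72 FPKM in the vector library, summed over its 2 identifiers (-0.37). Taken as 1 quantity, the 4 symbols summed to 79.7 FPKM in the ATOH8 library, against 97.4 FPKM in the vector library, a fold of 0.07. The split within this family is uncertain.

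The folds of the members varied with the base composition of their transcripts, as did those of all genes, and the part of base composition in the folds was not tested. Spearman's rho between fold and GC content of the longest transcript was 0.36 and Pearson's r was 0.46 across the 31 members, against a rho of 0.55 across 12313 genes. Genes of 1 library pair are not independent replicates, and these values are descriptions. POLR3G was the poorest in GC of all members at 34.3%, and POLR3GL stood at 48.1%. After a lowess curve of fold on GC content was subtracted, POLR3G stood at -1.48 and POLR3GL at 0.52. POLR3F moved to -0.94, inside 2-fold, while POLR2F (57.0% GC), POLR2L (60.1%) and POLR2E (59.4%) moved to -1.36, -1.14 and -1.03. POLR2K, at 35.2% GC, moved to 0.05, and POLR2M, at 37.6%, to 0.00. So 5 of the 31 members were low on the corrected scale, where the background was 4.75%, and 0 were high, where the background was 9.88%. POLR3G was low on both scales, and 3 of the 5 were among the subunits common to all the nuclear polymerases.

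**Figure D4:**
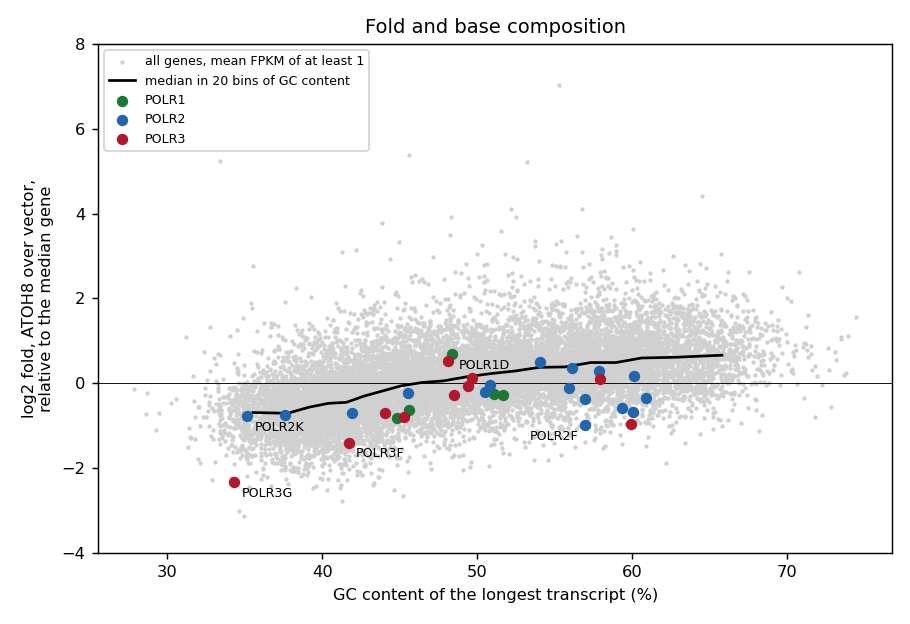
Log2 fold (ATOH8 over vector, relative to the median gene) against the GC content of each gene's longest transcript for all genes averaging 1 FPKM or more (grey) and the polymerase subunit genes (POLR1 green, POLR2 blue, POLR3 red). The black line is the median in 20 bins of GC content. POLR3G, at 34.3% GC, lies below the line as well as below 0, POLR2K lies on the line, and POLR2F lies well below it at 57.0% GC.

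The order of abundance among the members was largely shared by the libraries. Across the 31 members, ATOH8 levels and vector levels had a Spearman's rho of 0.90. The rho between mean FPKM and transcript length was -0.44. The median level was 31.2 FPKM in the ATOH8 library, against 44.0 FPKM in the vector library, for POLR2. It was 10.0 FPKM in the ATOH8 library, against 20.9 FPKM in the vector library, for POLR1 and 6.81 FPKM in the ATOH8 library, against 11.5 FPKM in the vector library, for POLR3. Neither FPKM nor its order gives the amount of protein.

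Basic helix-loop-helix factors bind the E-box, spelled CANNTG on either strand. The windows of 250 bases before to 50 after the start of transcription in RefSeq were therefore searched for it. RefSeq (GRCh38.p14) held such a window for 21 of the 31 symbols, without POLR3G. The E-box letters were present in 16 of the 21 (76.2%), against 66.4% of 9005 expressed genes with a window. The letters CACGTG were present in 3 of the 21 (14.3%), against 12.95%. CAGCTG was present in 3 (14.3%), against 21.9%, the TATA box TATAAA in 1 (4.76%, POLR2M), against 7.65%, and the GC box GGGCGG in 16 (76.2%), against 78.6%. The palindromic motif of NRF1, searched as a single spelling of 10 bases, was present in 3 (14.3%, POLR2F, POLR2H and POLR3B), against 2.73%. CACGTG and CAGCTG are also E-boxes and are counted in both. These motifs are short, a match is no site of binding, and no binding was measured here. The windows of the trimer genes POLR3F, at chr20:18467140-18467439, and POLR3GL, at chr1:145964440-145964739, both on the plus strand, are printed with each E-box in capitals, because these genes of 1 complex stood at -1.41 and 0.53.
POLR3F: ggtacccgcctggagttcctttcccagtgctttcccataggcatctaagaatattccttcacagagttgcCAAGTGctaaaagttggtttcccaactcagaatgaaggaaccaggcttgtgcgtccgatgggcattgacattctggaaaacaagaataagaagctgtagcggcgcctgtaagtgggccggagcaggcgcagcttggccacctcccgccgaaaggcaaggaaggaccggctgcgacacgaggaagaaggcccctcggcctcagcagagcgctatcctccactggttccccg
POLR3GL: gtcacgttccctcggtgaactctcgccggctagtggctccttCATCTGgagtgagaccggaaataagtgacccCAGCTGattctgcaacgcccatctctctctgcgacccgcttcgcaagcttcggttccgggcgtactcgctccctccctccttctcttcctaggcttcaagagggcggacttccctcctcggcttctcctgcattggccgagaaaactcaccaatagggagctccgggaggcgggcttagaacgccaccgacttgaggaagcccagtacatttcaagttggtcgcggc
The POLR3F window held 1 E-box and the POLR3GL window 2. RefSeq and GENCODE place some starts differently. The POLR3F window, from 18467140, lies inside the GENCODE gene, which begins at 18467127. By GENCODE its E-box is therefore within the transcribed gene and not before it. Windows of POLR1A, POLR1C, POLR2B, POLR2C and POLR2F also lie inside their GENCODE genes. So does 1 window each of POLR1B, POLR1D, POLR2H, POLR3B and POLR3C. Of these inside windows, those of POLR1B, POLR1D, POLR2C, POLR2H and POLR3B hold E-box letters, and these genes are among the 16. The POLR3GL E-boxes lie before the GENCODE start.

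The lists of partner genes, 5 in number, were described in the same way, by counts and medians, beside the 9.46% low, the 12.8% high and the median of 0.06 over all genes. The median fold of 10 polymerase I genes outside the rule, the subunit genes TWISTNB, CD3EAP and ZNRD1 among them, was -0.86. Of the 10, 4 (40%) were low and 0 high. Along with TWISTNB these were UBTF, which binds the ribosomal DNA promoter, RRN3, which joins the polymerase to it, and TAF1B, of the promoter selectivity factor. UBTF was at 9.38 FPKM in the ATOH8 library, against 28.9 FPKM in the vector library (-1.16), and RRN3 was at 8.05 FPKM in the ATOH8 library, against 24.3 FPKM in the vector library (-1.12). After the GC correction UBTF stood at -1.46 and CD3EAP at -1.03, while TWISTNB, RRN3 and TAF1B stood at -0.57, -0.63 and -0.41 and were no longer low. At the upper end of the list, ZNRD1 and TAF1C had folds of 0.44 and -0.01.

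Of 17 polymerase III genes, those of initiation and control and the stalk subunit gene CRCP, 3 (17.6%) were low and 0 high. The median fold was -0.24. SNAPC5, of the complex that binds small nuclear RNA gene promoters, was at 9.68 FPKM in the ATOH8 library, against 34.0 FPKM in the vector library (-1.35). GTF3C6, of the factor TFIIIC, was at 14.1 FPKM in the ATOH8 library, against 43.6 FPKM in the vector library (-1.20). The remaining gene was BDP1, of the factor TFIIIB, at 1.10 FPKM in the ATOH8 library, against 5.11 FPKM in the vector library (-1.18). After the GC correction SNAPC5 and GTF3C6 stood at -1.12 and -1.11, and BDP1, at -0.51, was no longer low. SNAPC2 (0.85) and CRCP (0.32) had the highest folds. MAF1, the repressor of polymerase III, was at 68.7 FPKM in the ATOH8 library, against 75.2 FPKM in the vector library, a fold of 0.23. That fold was negative with the FPKM as deposited (-0.13) and after the GC correction (-0.28).

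Among 18 general transcription factor genes of polymerase II, 4 (22.2%) were low and 0 high, and the median fold was -0.44. CCNH and MNAT1, partners of the kinase CDK7 in TFIIH, had folds of -1.68 and -1.19, and GTF2A2 and GTF2A1, of TFIIA, had folds of -1.35 and -1.17. CCNH was at 7.91 FPKM in the ATOH8 library, against 35.6 FPKM in the vector library. After the GC correction 0 of the 18 were low, where the background was 4.75%. GTF2H4 (0.53) and the helicase gene ERCC2 (0.22) had the highest folds, and that of ERCC2 was negative with the FPKM as deposited (-0.14) and after the GC correction (-0.24). Among 18 elongation and pausing genes, 2 (11.1%, near the 9.46% of all genes) were low and 0 high, and the median fold was -0.05. The low genes were TCEA1, which helps stalled polymerase II cleave its RNA (-1.28), and the cyclin gene CCNT2 (-1.12). After the GC correction these stood at -0.56 and -0.36 and were no longer low, and HEXIM1, which restrains the elongation kinase, stood at -1.01. The kinase gene CDK9 (0.60) and ELL (0.58) had the highest folds there.

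Among 15 genes for assembly and nuclear import of the polymerases, 3 (20%) were low and 0 high, and the median fold was -0.53. RPAP3, which links HSP90 to the assembly of polymerases, was at 3.03 FPKM in the ATOH8 library, against 21.1 FPKM in the vector library. Its fold of -2.10 became -1.29 after the GC correction. GPN3, a GTPase of polymerase import, and URI1, a prefoldin-like partner, had folds of -1.25 and -1.08, and after the GC correction both stood at -0.62 and were no longer low. GPN2 (0.75) and PIH1D1 (0.48) had the highest folds. The authors' deposited table marked genes of every list down and none up. It held as down 6 of the polymerase I genes, 6 of the general factors, 3 of the elongation genes, 3 of the polymerase III genes and 4 of the assembly genes. Of the 31 polymerase symbols the authors' deposited table marked 5 down and 0 up. Of all gene identifiers valued in both libraries it marked 10.2% down and 4.33% up. Those shares also cover genes averaging below 1 FPKM, of which the members and lists hold none, so they are no matched background. The authors' table compares the same 2 libraries, so its q-values carry no replicate error.

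**Figure D5:**
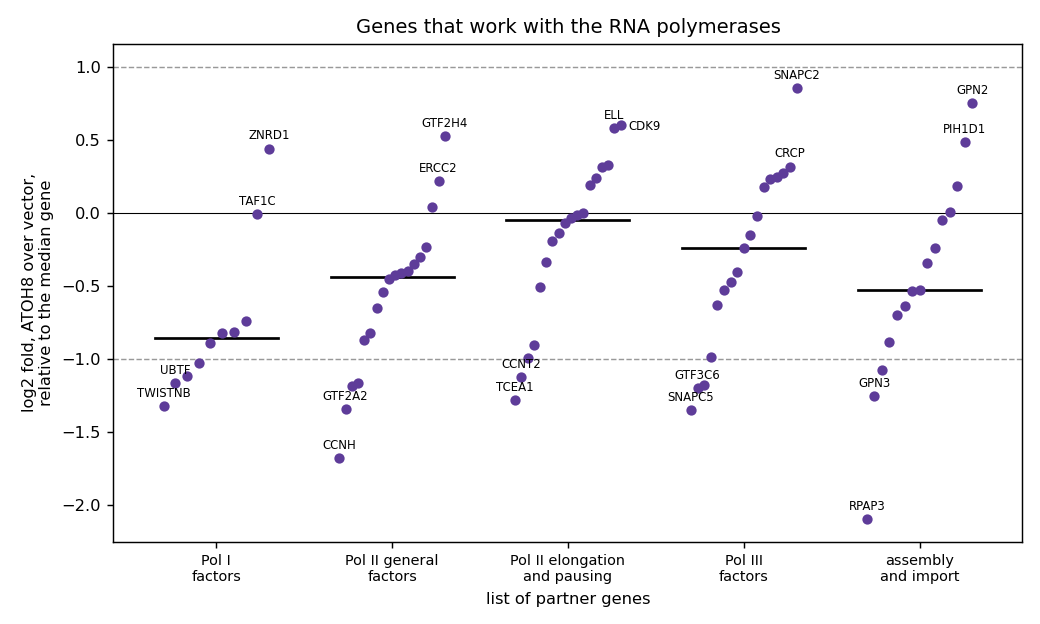
Log2 fold (ATOH8 over vector, relative to the median gene) of the genes in 5 lists of polymerase partners, with a point per gene, black lines for medians and dashed lines at 2-fold. All 5 medians lie below 0, from -0.05 for elongation and pausing genes to -0.86 for polymerase I factors, and RPAP3 is the lowest gene at -2.10.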

How the data were processed

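Each library came with a deposited table of FPKM that gives each gene's identifier, locus and symbol, per the file headers. The authors also made a comparison table, which holds a log2 ratio, deposited here as a score because a ratio to 0 is written as an extreme number, and a p-value and q-value for each gene, per the file headers. The submitters' processing notes name CASAVA, HISAT2, Cufflinks 2.2.1 and GRCh38, with no role or order. Annotation, filters and depth are not stated in the sources used here, so counting intervals could not be computed. The comparison table's other 2 columns of FPKM fit no sample label and stayed out.

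Identifiers joined the tables, and rows of 1 symbol were summed. Folds used log2(FPKM + 1), whose pseudocount shrinks the folds of low genes, and only genes averaging 1 FPKM or more were kept. The fold calculation was tested on simulated data. GC content came from the longest GENCODE 29 transcript, and the lowess fraction was 0.3. Python 3.11.15, pandas 2.3.3, scipy 1.17.1 and statsmodels 0.14.6 were used. All members were named but 1, which is counted but not reported here, and the 2 lowest and 2 highest folds of each partner list. The members and lists were chosen with earlier results of these data known. Genes named beyond that rule were chosen after their values were seen.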

Additional observations from a re-analysis of the deposited data

How the results depend on the processing

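The 9 alternatives left the 2-fold side of 251 of 276 recomputed member folds as it was, and no member past 2-fold turned sign. With a pseudocount of 0.1, 5 members were past 2-fold in place of 2, 1 of POLR2 and 4 of POLR3. With a pseudocount of 5, 1 member was, POLR3G, the 1 left of POLR3 (POLR3F stood at -0.82), and 0 polymerase I partner genes and 1 elongation gene were at least 2-fold lower. With FPKM as deposited, 11 members were past 2-fold, 1 of POLR1, 5 of POLR2 and 5 of POLR3, and 8 polymerase I, 7 general factor, 4 elongation and 6 assembly genes were at least 2-fold lower. With TPM, 9 members were, 1 of POLR1, 3 of POLR2 and 5 of POLR3, with 8 polymerase I and 4 elongation genes. After the GC correction 5 members were, 3 of POLR2 and 2 of POLR3, with 2 polymerase I, 0 general factor, 1 elongation and 1 assembly gene at least 2-fold lower. With a mean FPKM of at least 5, 1 elongation gene was. The counts with TPM and with FPKM as deposited are higher by construction, since the median gene then lies at -0.27 and -0.36. A larger pseudocount shrinks the uncentred folds of low genes more, and a smaller one less, also by construction. For the GC correction the cause was not tested. The share of all genes past 2-fold is not given here for the pseudocounts, TPM or the filter at 5 FPKM. So those counts are not read as results about the members or the lists. Upper quartile scaling, no filter and the highest row of a shared symbol moved none of these counts beyond 1.5 times. Depth is unknown, so what counting error allows for genes near 1 FPKM, such as POLR3G and POLR3B in the ATOH8 library, cannot be given. No paired analysis was possible because each group has 1 library.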

Other observations

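The folds of POLRMT and TFAM below are given without the GC correction. POLRMT, the polymerase of mitochondria, is outside the symbol rule and went the other way from most nuclear subunits. It was at 26.4 FPKM in the ATOH8 library, against 22.7 FPKM in the vector library, a fold of 0.57 relative to the median gene. TFAM, the factor that packages mitochondrial DNA and starts its transcription, was at 4.23 FPKM in the ATOH8 library, against 27.6 FPKM in the vector library, a fold of -2.09.

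Some products of polymerase III also had values in both libraries. RN7SL2, the RNA of the signal recognition particle, was at 44.6 FPKM in the ATOH8 library, against 124.0 FPKM in the vector library (-1.10). RMRP, the RNA of a ribonuclease that processes ribosomal RNA, was at 9.59 FPKM in the ATOH8 library, against 6.27 FPKM in the vector library (0.90). RN7SK, which holds the elongation kinase of polymerase II inactive, was at 5.07 FPKM in the ATOH8 library, against 6.64 FPKM in the vector library, a fold of 0.03 relative to the median gene. RPPH1, the RNA of ribonuclease P, was at 2.37 FPKM in the ATOH8 library, against 3.60 FPKM in the vector library (-0.09). BCYRN1 was at 11.4 FPKM in the ATOH8 library, against 12.0 FPKM in the vector library (0.29). RN7SL1 was listed at 35.9 FPKM in the ATOH8 library, against 101.9 FPKM in the vector library, and was given no fold. How well such short RNAs were captured was not tested, and their levels are not a measure of polymerase III output.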
